A study of Mus musculus with 24 samples.

Results

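The response of control B16F10 cells to tumour necrosis factor alpha (TNFα) was examined in 6 of the 24 libraries of the series, chosen by their labels as the control line with vehicle (3 libraries) and the control line with TNFα (3 libraries). B16F10 is a pigmented mouse melanoma line. The control line is a control-knockout line whose genotype label is WT, and both groups carry it. Cells were grown in 6-well plates with TNFα at 2 ng/ml or without it for 24 h. The series also holds 3 other lines with the same treatments, labelled as knockouts of Rnf31, Atg5 or both, and its title concerns making resistant tumour cells sensitive to cytokines from T cells. Whether the lines are clones or pools is not given in the sources used here. The 3 libraries of a group are labelled biological replicates, but separate cultures are not described, and the spread behind each p-value may be in part technical.

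Counts assigned to named genes totalled 26568930 to 33385502 in the vehicle libraries and 22418910 to 31439330 in the TNFα libraries. Melanocyte markers were abundant in all 6 libraries: Dct, a melanin synthesis enzyme, measured 6367 to 7775 CPM (read counts scaled to the size of the library) and Mlana, a melanosome protein, 1064 to 1352 CPM. Of 12 leukocyte markers 1 could be read (Lyz2), at 1.24 to 2.06 CPM. Of 12 markers of fibroblasts, endothelium and keratinocytes 4 could be read, at a summed level of 4.82 to 6.38 CPM with vehicle and 4.91 to 5.22 CPM with TNFα. The other markers of both lists were not analysed here. Vehicle replicate 2 stood apart: compared gene by gene (chi-square of the counts over its degrees of freedom), it gave 31.0 against vehicle replicate 1 and 19.5 against replicate 3, while replicates 1 and 3 gave 4.48 and pairs of TNFα libraries 3.41 to 3.58.

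TNFα binds the receptor TNFR1 (Tnfrsf1a) on most cells, and a complex built on the receptor by adaptor proteins and ubiquitin ligases activates the IKK kinases. These release NF-kB dimers from the IkB proteins, and NF-kB raises the transcription of chemokines, adhesion molecules, survival proteins and its own inhibitors, including Nfkbia and Tnfaip3. When this arm is blocked, the same receptor can start caspase-8 dependent cell death. Many target transcripts are known to respond early and briefly, and the single time point sampled here gives their level at that time only.

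Promoter stretches of 6 genes described below are shown first, since the induction of these genes by NF-kB or interferon factors is the textbook route from the receptor to the transcriptome. Letters of the NF-kB type (GGG, any 2 bases, TTTCC) and of the interferon response element type (GAAA, any 2 bases, GAAA) were searched on both strands in RefSeq windows from 250 bases before to 50 bases after each start, on GRCm38.p6. Capitals mark 1 match per line. Each stretch runs 5′ to 3′ on the strand of the gene, with up to 30 bases on each side and none past the start.
Nfkb2, upstream window, chr19:46304696-46304736, plus strand: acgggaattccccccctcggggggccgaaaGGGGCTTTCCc
Nfkb2, downstream window, chr19:46305680-46305744, plus strand: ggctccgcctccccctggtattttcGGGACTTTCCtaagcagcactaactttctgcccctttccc
Nfkbia, chr12:55492648-55492706, minus strand: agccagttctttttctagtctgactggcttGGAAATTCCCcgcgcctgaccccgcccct
Tnfaip3, chr10:19015411-19015452, minus strand: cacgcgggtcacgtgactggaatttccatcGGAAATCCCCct
Csf1, chr3:107760584-107760653, minus strand: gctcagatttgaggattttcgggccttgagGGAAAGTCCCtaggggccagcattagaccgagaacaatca
B2m, chr2:122147531-122147600, plus strand: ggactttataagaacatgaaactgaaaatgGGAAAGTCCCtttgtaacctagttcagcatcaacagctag
Cxcl10, chr5:92349063-92349132, minus strand: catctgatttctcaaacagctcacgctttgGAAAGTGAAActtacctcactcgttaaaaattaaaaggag

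The capitals are of the interferon type in the Cxcl10 line and of the NF-kB type in the other lines, and the B2m stretch also holds an interferon type match in lower case. The window of Cxcl1, which had too few counts to read, holds 2 NF-kB type matches and is not printed. Relb, Nfkb1, Rgs16, Irf1, Ccl5, Birc3, Icam1, Tapbp and H2-K1 were also searched. They gave no stretch wholly upstream of a start, for lack of a match or of a window there. Of the 10017 tested genes with a window, 198 (1.98%) held the NF-kB type and 356 (3.55%) the interferon type. Among the 10 tested NF-kB subunits and IkB proteins, 7 had a window and 3 of these held the NF-kB type. A match describes the letters and is not a measured binding site. The 198 genes with the NF-kB type had a median TNFα response of -0.003 on the log2 scale, against -0.011 for all genes with a window, with 22 of them higher (11.1%) and 20 lower (10.1%) in every TNFα library than in every vehicle library, against 10.2% and 11.5% of all genes with a window. The 356 genes with the interferon type had a median of -0.02, with 26 higher (7.30%) and 49 lower (13.8%) in every TNFα library. None of either set passed the test across all genes.

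The transcriptome of control cells with TNFα differed little from that with vehicle. Of 13527 genes tested, 13 were called higher with TNFα (0.0961%) and 0 lower, at a Benjamini-Hochberg adjusted p under 0.05 in edgeR's quasi-likelihood test. At an unadjusted p under 0.05, 1324 genes were higher and 1621 lower. No called gene changed by more than 2-fold: the log2 fold changes of the 13 lay between 0.26 and 0.41. The 13 were Kmt2d, Ubr4, Furin, Huwe1, Dync1h1, Htt, Apc, Cenpf, Herc1, Tnrc18, Hspg2, Soga1 and Mki67. None of them is in the receptor, NF-kB, chemokine or adhesion lists used here. With 0.0961% of all genes called, lists this short would be expected to hold none, so their absence says nothing about these lists.

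**Figure D1:**
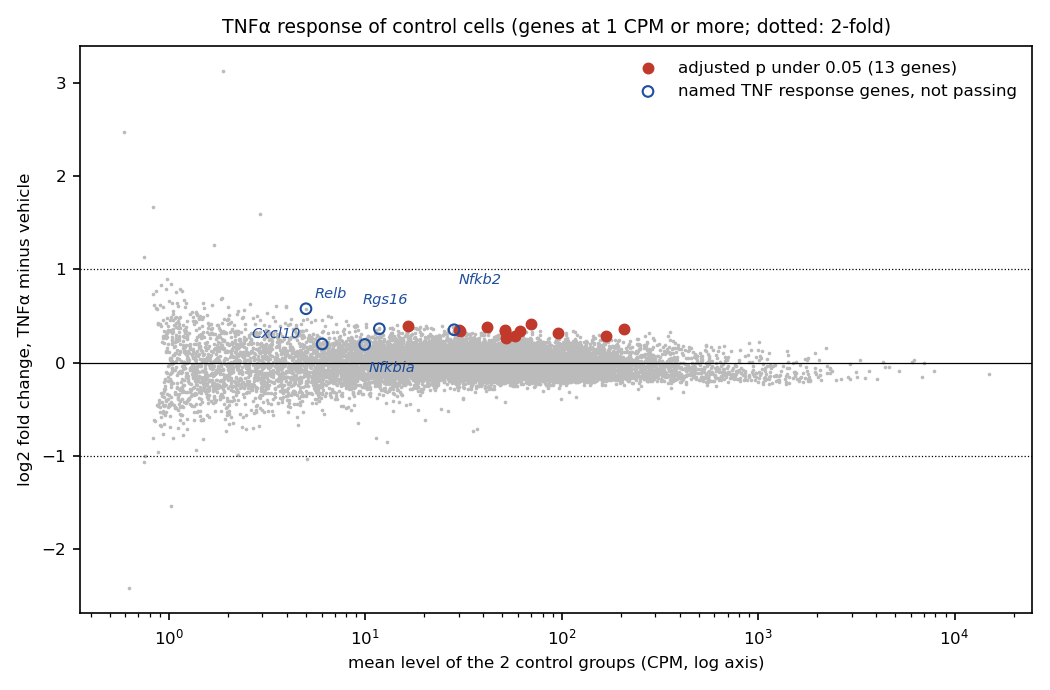
Response of 11472 genes with a mean of 1 CPM or more in a control group. The x axis is the mean level (CPM, log axis) and the y axis the log2 fold change, TNFα minus vehicle. Red points are the 13 genes that passed the test, all between 0.26 and 0.41. Blue circles are 5 named TNF response genes that did not pass, and dotted lines mark 2-fold.

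Kmt2d, a histone methyltransferase (chr15:98831669-98871204, GRCm38), measured 42.7, 49.9 and 43.1 CPM in vehicle replicates 1 to 3 and 57.1, 57.0 and 57.8 CPM in the TNFα replicates. The groups did not overlap, and the log2 fold change was 0.34 ± 0.05 (SE; adjusted p = 0.00782). Ubr4, a large ubiquitin ligase (chr4:139352609-139489588), measured 64.3, 61.2 and 54.8 CPM with vehicle and 81.8, 79.3 and 78.8 CPM with TNFα. Its groups lay apart as well, with a log2 fold change of 0.41 ± 0.07 (adjusted p = 0.00782). Furin, a protease that cleaves precursor proteins (chr7:80388585-80405436), measured 38.6, 33.3 and 37.1 CPM with vehicle and 45.2, 47.0 and 49.6 CPM with TNFα. This gave a log2 fold change of 0.38 ± 0.07 (adjusted p = 0.0123). The remaining called genes encode, among others, the dynein heavy chain (Dync1h1), a ubiquitin ligase (Huwe1), the basement membrane protein perlecan (Hspg2), a kinetochore protein (Cenpf) and the proliferation antigen Ki-67 (Mki67). All 13 were higher in every TNFα library than in every vehicle library. Over all genes tested, 9.66% were higher in all 3 TNFα libraries and 11.1% were lower in all 3.

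The number of calls moved with the libraries used. Without vehicle replicate 2, 2 genes were called (0.0146%), both higher, Kmt2d (log2 fold change 0.42, adjusted p = 0.000117) and Ubr4 (0.42, adjusted p = 0.0191). Without TNFα replicate 1, Furin and Kmt2d were called. Without TNFα replicate 2, 4 genes were called higher, Dync1h1, Furin, Kmt2d and Ubr4, and 1 lower, Cox20, which lies outside the naming rule. Without vehicle replicate 3, or without TNFα replicate 3, 0 genes were called. Without vehicle replicate 1, which left vehicle replicate 2 as 1 of only 2 vehicle libraries, 1038 genes were called higher and 1162 lower, 13 and 22 of them by more than 2-fold. No gene was called in the fit of 24 libraries, without vehicle replicate 2 and after the correction for transcript length alike.

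Transcript length moved with the response and with vehicle replicate 2. The 13 called genes have longest transcripts of 5736 to 19823 nucleotides (median 13215), while the median of the tested genes was 3223, and 84.9% of these were shorter than the shortest called gene. The tested genes were divided into deciles by length. In the shortest decile (204 to 1215 nucleotides) the median response was -0.15 on the log2 scale, and in the longest decile (6659 to 123179 nucleotides) it was 0.13. The level of vehicle replicate 2 relative to the mean of the 6 libraries had a median of 0.28 in the shortest decile and -0.15 in the longest. Vehicle replicates 1 and 3 lay between -0.04 and 0.00 in both deciles. The 3 TNFα libraries lay between -0.08 and -0.05 in the shortest and between 0.05 and 0.07 in the longest. Without vehicle replicate 2 the median response was -0.04 in the shortest and 0.08 in the longest decile. In that fit, with 1 library fewer, 956 of 13717 genes had an unadjusted p under 0.05. After length correction the decile medians lay between -0.02 and 0.01, 0 genes were called, and 2175 had an unadjusted p under 0.05. Furin had the smallest adjusted p (0.0841) and a corrected log2 fold change of 0.31, against 0.38 before. The corrected values were 0.23 for Ubr4, 0.14 for Kmt2d and 0.12 for Htt, against 0.41, 0.34 and 0.29 before. Whether the length trend has a biological or a technical origin was not tested.

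**Figure D2:**
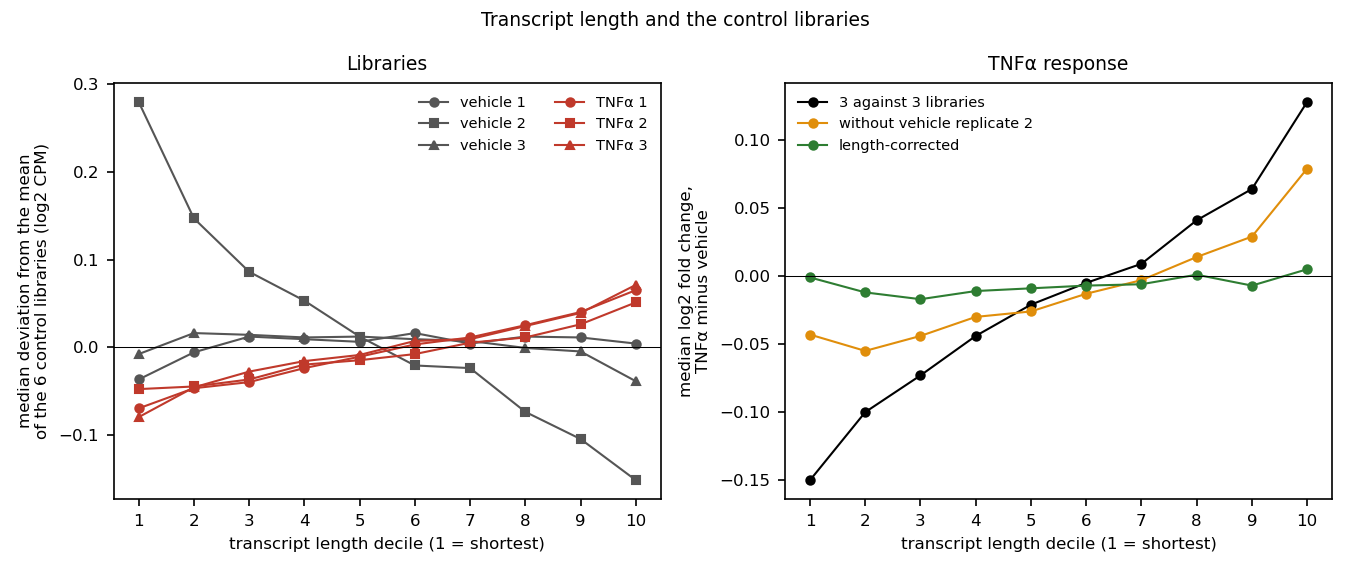
Transcript length and the control libraries. The x axis of both panels is the decile of the tested genes by transcript length, and the y axes are median log2 values, of each library relative to the mean of the 6 (left) and of the TNFα response (right). From the shortest to the longest decile, vehicle replicate 2 runs from 0.28 to -0.15 and the response from -0.15 to 0.13, while the corrected response lies between -0.02 and 0.01.

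None of the 23 tested receptors and receptor complex members passed the test (median -0.03, against -0.01 over all genes tested). Tnfrsf1a, the main TNFα receptor (chr6:125349362-125362484), measured 86.1, 71.9 and 81.6 CPM with vehicle and 77.9, 82.3 and 74.5 CPM with TNFα. The groups overlapped, and the fold was 0.979 with a 95% interval of 0.896 to 1.07. Tnfrsf1b, the second receptor, had 9 counts over the vehicle libraries and 6 over the TNFα libraries, so no change could be read at this depth. Per kilobase of transcript, Tnfrsf1a stood at 37.0 CPM with vehicle and Tnfrsf1b at 0.0264 CPM. Spata2, an adaptor of the deubiquitinase CYLD, had the smallest adjusted p of the list (0.129): it measured 23.7, 20.9 and 22.7 CPM with vehicle and 25.99, 24.17 and 24.86 CPM with TNFα. Rnf31, the catalytic subunit of the linear ubiquitin ligase, measured 10.75, 9.999 and 8.612 CPM with vehicle and 10.9, 10.3 and 10.4 CPM with TNFα, which overlap.

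The NF-kB subunits and IkB proteins had a list median of 0.16 on the log2 scale, and 7 of 10 tested members had positive fold changes. Of the 10, 0 passed the test and 4 were higher in every TNFα library (Relb, Nfkb2, Nfkb1 and Rel, the last outside the naming rule), against 9.66% of all genes tested. The list median was 0.13 without vehicle replicate 2 and 0.12 after length correction, so it kept its sign in both.

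Relb, a subunit of the noncanonical NF-kB dimer (chr7:19606217-19629438), measured 4.31, 4.19 and 3.48 CPM with vehicle and 5.26, 6.78 and 5.95 CPM with TNFα. Its groups did not overlap and its fold was 1.49 (95% interval 1.25 to 1.78), with an adjusted p of 0.0551, which misses the threshold of 0.05. Its log2 fold change of 0.58 ± 0.12 was 0.58 after length correction (adjusted p = 0.127) and 0.61 without vehicle replicate 2 (adjusted p = 0.295). Over 17 alternative settings its log2 fold change lay between 0.49 and 0.67 and it passed the test in 6 (adjusted p from 0.00928 to 1).

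Nfkb2, the precursor of Relb's partner p52 (chr19:46304320-46312385), measured 28.5, 20.7 and 25.6 CPM with vehicle and 31.0, 31.4 and 32.8 CPM with TNFα. All 3 TNFα libraries were higher, with vehicle replicate 2 the lowest of all. Its log2 fold change was 0.35 ± 0.09 (adjusted p = 0.0608), 0.34 after length correction and 0.23 without vehicle replicate 2. Over 18 alternatives it lay between 0.23 and 0.46 and passed in 6 (adjusted p from 0.00807 to 1). Nfkb1, the precursor of p50, measured 55.4, 49.6 and 54.2 CPM with vehicle and 59.8, 55.8 and 60.9 CPM with TNFα (log2 fold change 0.15 ± 0.06, adjusted p = 0.161). Rela, the main activating subunit, had overlapping groups, at 40.9, 31.2 and 35.6 CPM with vehicle and 42.4, 36.8 and 40.9 CPM with TNFα (0.16 ± 0.09, adjusted p = 0.273, and 0.07 without vehicle replicate 2). Nfkbia, the inhibitor whose transcript NF-kB itself drives (chr12:55489410-55492647), measured 9.80, 8.73 and 9.42 CPM with vehicle and 9.52, 9.99 and 12.2 CPM with TNFα. The groups overlapped and the fold was 1.14 with an interval of 0.952 to 1.38 (adjusted p = 0.389).

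**Figure D3:**
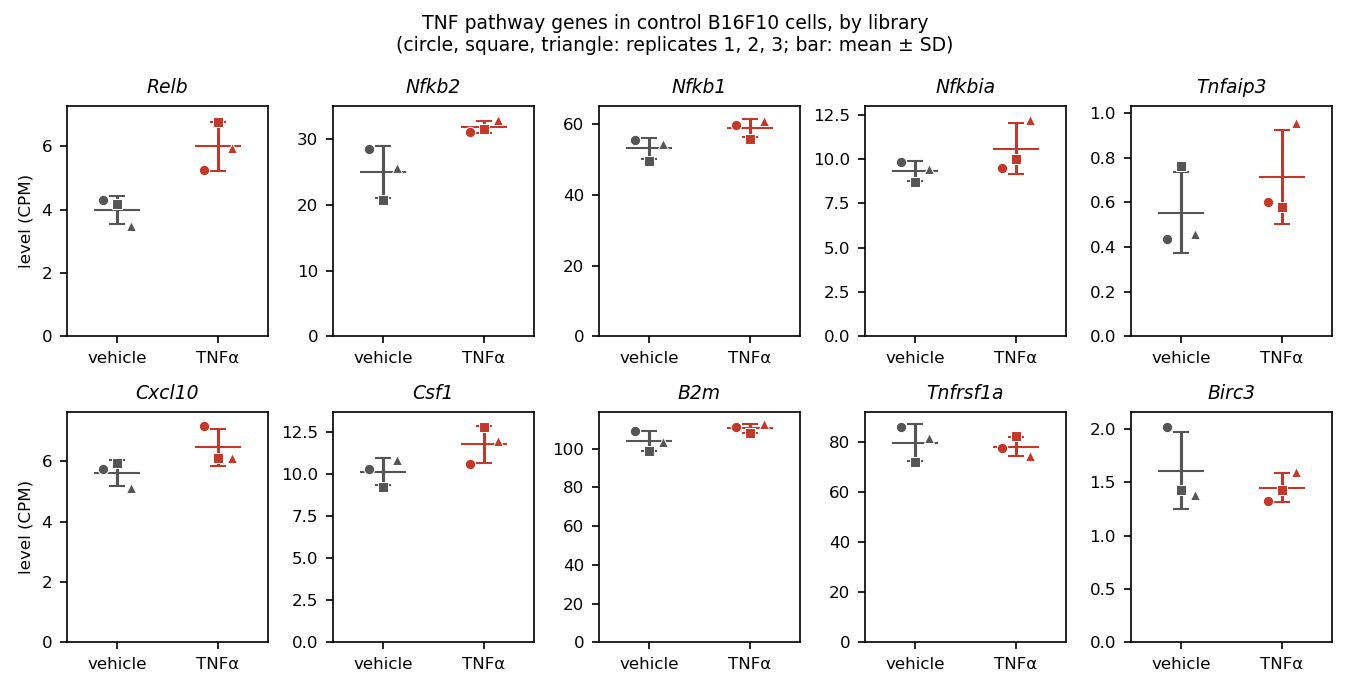
Level (CPM, y axis from 0) of 10 genes of the TNF pathway in the 6 control libraries, by treatment (x axis). Points are libraries, with circles, squares and triangles for replicates 1 to 3, and bars are mean ± SD of 3. The groups do not overlap for Relb, Nfkb2, Nfkb1 and Cxcl10, and overlap for the other 6.

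The 16 tested feedback and survival targets of NF-kB had a median of 0.01, 0 passed the test, and 2 were higher in every TNFα library, against 9.66% of all genes. One of these was Rgs16, a regulator of G protein signalling, at 11.2, 8.63 and 11.1 CPM with vehicle and 14.1, 14.3 and 11.5 CPM with TNFα. Its log2 fold change was 0.36 ± 0.09 (adjusted p = 0.0714). It was 0.24 without vehicle replicate 2. The other was Plk3, a stress kinase, at 4.01, 4.29 and 5.28 CPM with vehicle and 6.07, 5.66 and 6.49 CPM with TNFα (0.43 ± 0.20, adjusted p = 0.212). Tnfaip3, the deubiquitinase A20 that ends NF-kB signalling (chr10:19000910-19015657), measured 0.438, 0.762 and 0.459 CPM with vehicle and 0.603, 0.580 and 0.955 CPM with TNFα. With 49 and 58 counts per group the interval of its fold ran from 0.830 to 2.05, so at this depth a doubling could not be told from no change. Birc3, the ubiquitin ligase cIAP2, measured 2.02, 1.43 and 1.38 CPM with vehicle and 1.33, 1.43 and 1.59 CPM with TNFα, with overlapping groups and a fold of 0.902 (0.661 to 1.23).

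Among 14 tested chemokines, cytokines and growth factors 0 passed the test (median -0.02). Cxcl10, a chemokine that attracts T cells (chr5:92346638-92348889), measured 5.76, 5.94 and 5.13 CPM with vehicle and 7.19, 6.11 and 6.11 CPM with TNFα. It was the only member higher in every TNFα library, by a fold of 1.15 (95% interval 0.994 to 1.33, adjusted p = 0.247). In the list 1 member was lower in every TNFα library, and over all genes 9.66% were higher and 11.1% lower. Csf1, a macrophage growth factor, measured 10.3, 9.27 and 10.8 CPM with vehicle and 10.6, 12.8 and 11.97 CPM with TNFα (log2 fold change 0.22 ± 0.09, adjusted p = 0.168). The groups overlapped at a single library of each. Ccl5, a T cell and monocyte chemokine, measured 2.998, 2.889 and 3.253 CPM with vehicle and 2.53, 3.75 and 2.80 CPM with TNFα, a fold of 0.986 (0.774 to 1.26). Several inducible members had almost no counts in either group, and 3 outside the naming rule are given as examples. Cxcl1, a neutrophil chemokine, had 4 counts over the vehicle libraries and 6 over the TNFα libraries, and Il6 had 4 and 2. Tnf itself had 1 count with vehicle and 0 with TNFα. Ccl2 and 7 other members of the list were not analysed here.

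The adhesion molecule and acute phase list had 9 tested members, of which 0 passed (median 0.11). Icam1, an adhesion molecule for leukocytes, had 2 counts with vehicle and 3 with TNFα over all libraries, while Vcam1 had 24 and 23 counts and the abundant receptor Cd44 had 32163 and 29406, both outside the naming rule. No member was higher in every TNFα library and 1 was lower, against 9.66% and 11.1% of all genes. Of the 16 tested AP-1 and immediate early genes 0 passed (median 0.05), and Atf3, a stress-induced factor outside the naming rule, measured 6.44, 7.08 and 7.73 CPM with vehicle and 7.27, 8.03 and 7.07 CPM with TNFα.

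The lists of interferon-stimulated genes and of interferon receptors, STATs and IRFs had medians near that of all genes. Of 39 tested interferon-stimulated genes 0 passed, with a median of 0.00 and 19 on each side of 0. Eif2ak2, the RNA-sensing kinase PKR, measured 27.9, 23.1 and 23.8 CPM with vehicle and 27.6, 29.9 and 29.1 CPM with TNFα (log2 fold change 0.21 ± 0.08, adjusted p = 0.130). Oas1a, an antiviral enzyme, went the other way, at 2.02, 2.25 and 1.34 CPM with vehicle and 1.21, 1.03 and 1.53 CPM with TNFα (-0.57 ± 0.21, adjusted p = 0.131). Both had overlapping groups. Of 18 tested interferon receptors, STATs and IRFs 0 passed (median 0.04). Irf1, a factor induced by TNFα and interferon, had a fold of 1.047 (0.924 to 1.19).

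The 16 tested genes of MHC class I and peptide loading had a median of 0.06, 0 passed, and 3 were higher and 2 lower in every TNFα library, against 9.66% and 11.1% of all genes. Tapbp, the loading chaperone tapasin, measured 11.1, 10.5 and 11.5 CPM with vehicle and 12.85, 13.02 and 12.29 CPM with TNFα (log2 fold change 0.21 ± 0.07, adjusted p = 0.112). B2m, the light chain of class I molecules, measured 109, 98.6 and 103.6 CPM with vehicle and 111, 108 and 113 CPM with TNFα. Its groups overlapped through vehicle replicate 1, and its fold of 1.07 had an interval of 0.995 to 1.14. H2-K1, a class I heavy chain whose reads can be shared with other class I genes, had a fold of 0.976 (0.779 to 1.22). The 6 tested immunoproteasome and activator genes had a median of -0.16. Psme1 and Psme2, which encode the activator subunits, were lower in every TNFα library (log2 fold changes -0.17 and -0.19, adjusted p = 0.121 and 0.161), and their values were -0.11 and -0.06 after length correction and -0.09 and -0.11 without vehicle replicate 2. Of 11 tested immune ligands and receptors of the TNF family list 0 passed (median -0.03). One of them, Cd274, which encodes PD-L1, measured 3.10, 3.46 and 3.56 CPM with vehicle and 2.53, 2.72 and 3.66 CPM with TNFα, which overlap.

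**Figure D4:**
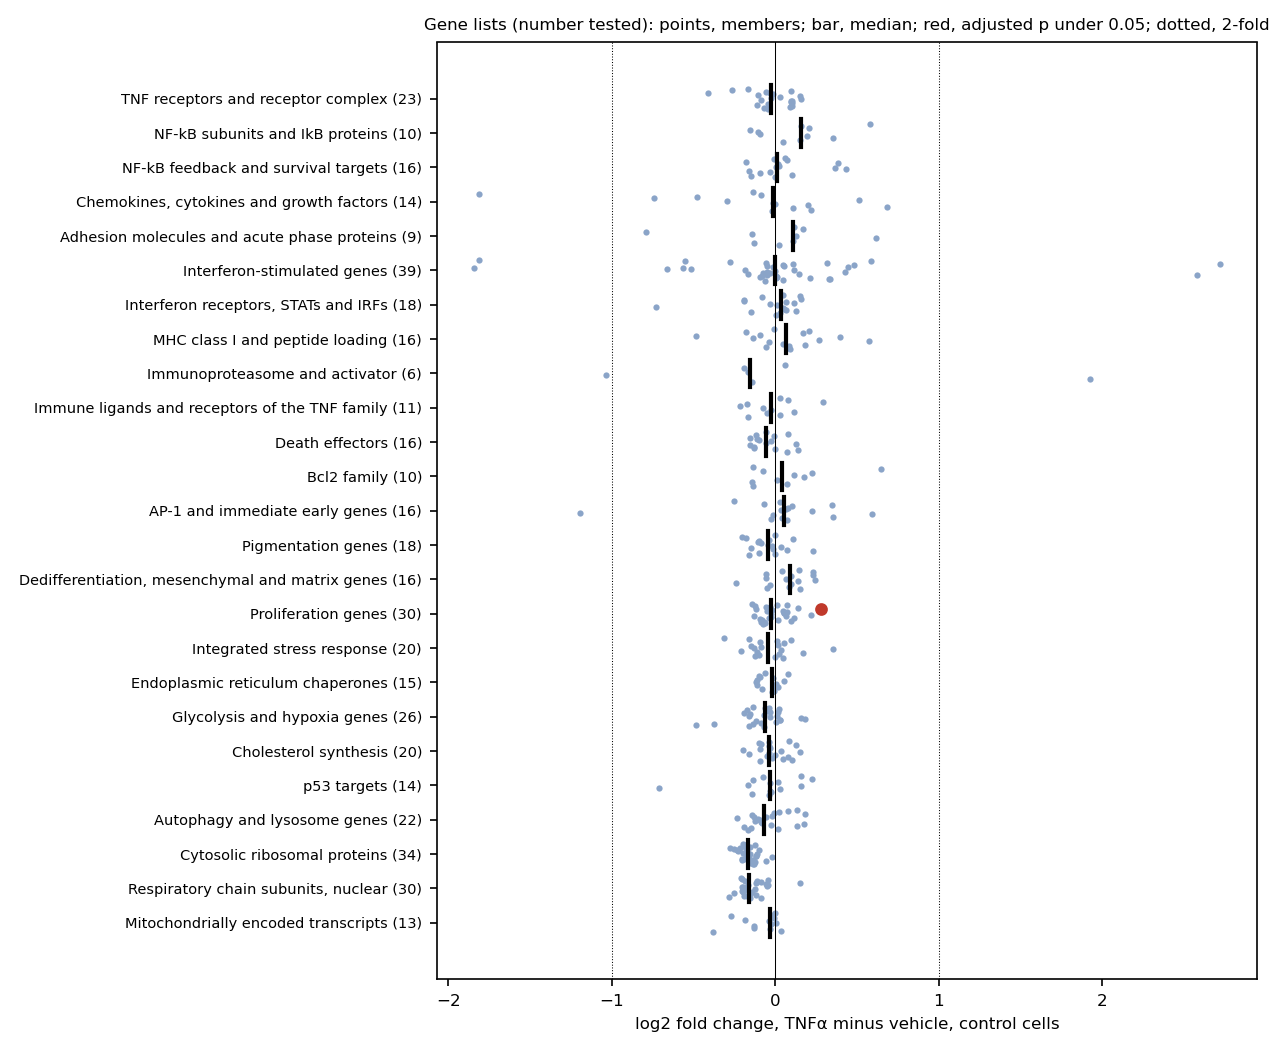
Log2 fold change (x axis, TNFα minus vehicle) of the tested members of 25 gene lists (y axis, number tested in parentheses). Points are genes, bars are list medians, and red marks the single member that passed the test, Mki67. Medians lie between -0.17 (cytosolic ribosomal proteins) and 0.16 (NF-kB subunits and IkB proteins), and the points past the dotted 2-fold lines did not pass the test.

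Of 16 tested death effectors 0 passed (median -0.06), and 14 had an interval within 1.5-fold, against 75.6% of all genes with an interval. Casp8, the initiator caspase of the TNFα death complex, measured 92.6, 94.3 and 95.6 CPM with vehicle and 86.9, 93.7 and 90.5 CPM with TNFα, a fold of 0.959 with a narrow interval of 0.900 to 1.02. Of 10 tested Bcl2 family genes 0 passed. Mcl1, a short-lived survival protein, measured 279, 296 and 293 CPM with vehicle and 261, 266 and 262 CPM with TNFα. All 3 TNFα libraries were lower, by -0.14 ± 0.04 on the log2 scale (adjusted p = 0.0744), and the value was -0.14 after length correction and -0.12 without vehicle replicate 2. Bax, a pore-forming killer protein, was also lower in every TNFα library (-0.14 ± 0.05, adjusted p = 0.112), but its value was -0.03 after length correction. Trp53, which encodes p53, measured 126, 101 and 118 CPM with vehicle and 141, 132 and 131 CPM with TNFα (0.23 ± 0.06, adjusted p = 0.0764), and had 0.14 without vehicle replicate 2, while the 14 tested genes of the p53 list had a median of -0.03.

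The 18 tested pigmentation genes had a median of -0.04, 0 passed, and 5 were lower in every TNFα library, against 11.1% of all genes. Dct measured 6706, 7775 and 7115 CPM with vehicle and 6367, 6411 and 6559 CPM with TNFα (log2 fold change -0.16 ± 0.04, adjusted p = 0.0759). Tyr, the rate-limiting enzyme of melanin synthesis, measured 683, 835 and 754 CPM with vehicle and 641, 667 and 661 CPM with TNFα (-0.21 ± 0.06, adjusted p = 0.0893). In both, vehicle replicate 2 was the highest library, and without it the values were -0.10 and -0.13. After length correction they were -0.16 and -0.29. Mitf, the lineage transcription factor, had a fold of 0.988 (0.920 to 1.06), and Tyrp1 and Pmel, both outside the naming rule, had log2 fold changes of -0.01 and -0.05. In bulk RNA, fewer pigmented cells and less RNA per cell cannot be told apart.

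Of 30 proliferation genes Mki67 alone passed the test. It measured 165, 142 and 148 CPM with vehicle and 190, 180 and 184 CPM with TNFα (log2 fold change 0.28 ± 0.06, adjusted p = 0.0473), and 0.14 after length correction (adjusted p = 0.147). The list median was -0.02. Pcna, the replication clamp, and Tyms, which makes thymidylate, were lower in every TNFα library (-0.12 ± 0.04 and -0.14 ± 0.05, adjusted p = 0.129 and 0.130), and had -0.06 and -0.08 without vehicle replicate 2. Foxm1, a mitotic transcription factor, had 0.22 ± 0.08 (adjusted p = 0.121) with overlapping groups, and 0.12 without vehicle replicate 2.

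The ribosomal protein and nuclear respiratory chain lists, both of short transcripts, were lower in nearly all members. All 34 cytosolic ribosomal protein genes (median transcript 1101 nucleotides) had negative fold changes, with a median of -0.17, and 16 were lower in every TNFα library against 11.1% of all genes, but 0 passed the test. Rps14 measured 1362, 1763 and 1388 CPM with vehicle and 1271, 1282 and 1301 CPM with TNFα (-0.23 ± 0.07, adjusted p = 0.0976), with vehicle replicate 2 far above the other 5. Without that library its value was -0.10. Of 30 nuclear respiratory chain subunits (median transcript 1376 nucleotides) 29 were negative, with a median of -0.16, and 17 were lower in every TNFα library. Cox7a2, a subunit of cytochrome oxidase, measured 255, 323 and 246 CPM with vehicle and 226, 240.0 and 227 CPM with TNFα, a log2 fold change of -0.25, or -0.12 without vehicle replicate 2. The medians of these lists were -0.05 and -0.06 without vehicle replicate 2, and -0.05 and -0.02 after length correction. Autophagy and lysosome genes had a median of -0.07, with 10 of 22 lower in every TNFα library, and -0.02 after length correction. The lists for the integrated stress response, endoplasmic reticulum chaperones, glycolysis and hypoxia, cholesterol synthesis, matrix genes and mitochondrially encoded transcripts had medians between -0.07 and 0.09, and 0 of their members passed. The glycolysis and hypoxia median went from -0.07 to -0.14 without vehicle replicate 2, and was -0.06 after length correction. The mitochondrially encoded list had the shorter median transcript of 784 nucleotides. Its median response was -0.035, with 11 of 13 negative and 0 lower in every TNFα library, and 0.065 after length correction.

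The largest differences among well-counted genes lay outside the lists. Of 11472 genes with a mean of 1 CPM or more in a control group, 11 had estimates past 2-fold, and 0 of these passed the test. The one with the smallest adjusted p was Nutf2-ps1, a processed pseudogene of the nuclear transport factor gene Nutf2, named after its values were seen. It measured 7.51, 6.73 and 5.97 CPM with vehicle and 3.01, 4.01 and 2.93 CPM with TNFα (log2 fold change -1.03 ± 0.23, adjusted p = 0.0585). The groups lay apart, and the value was -1.04 without vehicle replicate 2 and -0.90 after length correction. Its reads can be shared with Nutf2 itself, which measured 166, 199 and 175 CPM with vehicle and 158, 175 and 165 CPM with TNFα, so the division of reads between them is uncertain.

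The intervals bound how large a change could have been missed. Of the 11472 genes with a mean of 1 CPM or more, 10199 (88.9%) had a 95% interval of the fold wholly within 1.5-fold in either direction, and 11198 (97.6%) within 2-fold. The median standard error of their log2 fold changes was 0.0760. Of all 13495 genes with an interval, at any level, 10200 (75.6%) had one within 1.5-fold. The counts by list also take in members with few counts. Within the lists, the interval lay within 1.5-fold for 21 of 23 receptor complex genes, 8 of 10 NF-kB subunits and IkB proteins, 12 of 16 feedback and survival targets, 5 of 14 chemokines and cytokines, and 3 of 9 adhesion and acute phase genes. In the last 2 lists most members had no interval within 1.5-fold, and a change of that size was not excluded for them. Among interferon-stimulated genes the interval lay within 1.5-fold for 21 of 39.

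The same treatment was applied to the knockout lines, and the control response was set beside theirs. Rnf31 measured 8.61 to 10.9 CPM in the 6 control libraries, 6.84 to 8.52 CPM in the Rnf31 knockout, and 6.46 to 7.38 CPM in the double knockout, against 12.3 to 15 CPM in the Atg5 knockout. Atg5 measured 46.2 to 61.9 CPM in control, 41 to 46.8 CPM in the Rnf31 knockout, 20.7 to 24.9 CPM in the Atg5 knockout and 22.4 to 27.3 CPM in the double knockout. In the Rnf31 knockout 122 genes were called higher with TNFα (0.902%) and 36 lower (0.266%). In control cells these 122 genes had a median response of 0.11, and 93 of them were positive (77 after length correction), against 6307 of all 13527 genes. Their median of 0.34 in the knockout is the value they were chosen for. Of the 122, 47 were higher in every control TNFα library (9.66% of all genes were) and 3 were called in control, Kmt2d, Ubr4 and Hspg2. These 122 have a median transcript of 5142 nucleotides, and their control median was 0.07 without vehicle replicate 2 and 0.03 after length correction. The 36 genes lower in the knockout had a control median of -0.05, and 26 of them were negative, against 7212 of all 13527 genes. After length correction their control median was 0.006, and 17 of them were negative.

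The difference of the responses, control minus Rnf31 knockout, was called for 1 gene (0.00739%), Tmod1, which caps actin filaments and lies outside the naming rule. It measured 47.8, 50.8 and 51.4 CPM with vehicle and 51.0, 47.5 and 46.9 CPM with TNFα in control, a response of -0.05 ± 0.06 against 0.47 in the knockout (difference -0.52, adjusted p = 0.00689). After length correction 14 genes differed (0.103%), with Tmod1 (adjusted p = 0.00149) and Tnfrsf12a, the receptor of the TNF family ligand TWEAK, among them. Tnfrsf12a measured 144, 178 and 149 CPM with vehicle and 133, 147 and 138 CPM with TNFα in control. Its response was -0.17 in control and 0.36 in the knockout, with a difference of -0.53 (adjusted p = 0.0579, and 0.00138 after length correction). The count moved from 1 to 0 without control TNFα replicate 3, 2 without control vehicle replicate 3, 4 without control TNFα replicate 2, 6 without control vehicle replicate 2 and 113 without control vehicle replicate 1.

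For Relb, Nfkb2, Cxcl10, Rgs16 and B2m, which all passed in the Rnf31 knockout, the control response was smaller in estimate, but the differences did not pass the test. Relb responded by 0.58 in control and 0.92 in the knockout (difference -0.34, adjusted p = 0.431), and Nfkb2 by 0.35 and 0.40 (adjusted p = 0.889). Cxcl10 responded by 0.20 and 0.78 (difference -0.59, adjusted p = 0.105), Rgs16 by 0.36 and 0.91 (-0.55, adjusted p = 0.104) and B2m by 0.09 and 0.45 (-0.36, adjusted p = 0.0579). The 5 are grouped by having passed in the knockout, so their estimates there tend to be high by choice. None of the 5 passed in control. A response that passes in one line only does not show that the lines differ.

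**Figure D5:**
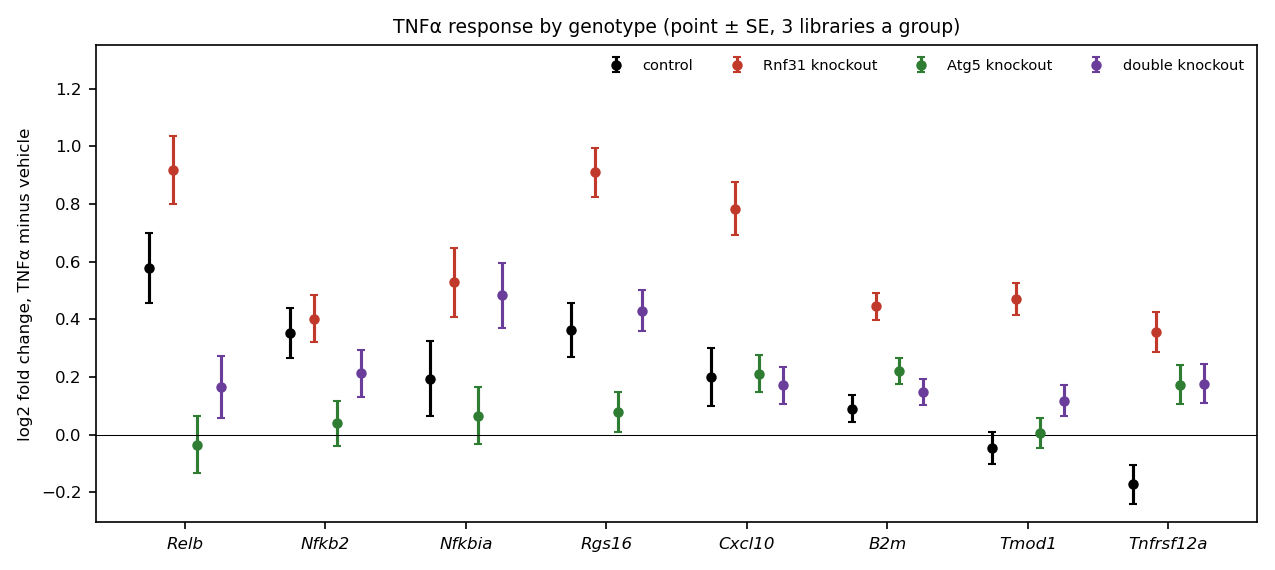
TNFα response (y axis, log2 fold change, TNFα minus vehicle) of 8 genes (x axis) in the 4 lines, as point ± SE from 3 libraries a group. Control responses (black) lie between -0.17 for Tnfrsf12a and 0.58 for Relb, and those of the Rnf31 knockout (red) between 0.36 and 0.92. Relb, Nfkb2, Rgs16, Cxcl10 and B2m passed in the Rnf31 knockout, and that choice favours larger values there.

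Control minus Atg5 knockout differed for 1536 genes (11.4%), 868 with the control response higher (6.42%) and 668 with it lower (4.94%), although the Atg5 knockout itself had 0 called genes in edgeR (1771 at an unadjusted p under 0.05). Relb was among them, at 0.58 in control and -0.04 in the knockout (adjusted p = 0.0196). Of the ribosomal protein genes 21 of 34, and of the nuclear respiratory chain subunits 19 of 30, were called with the control response lower. After length correction 1 of each was called. Length correction left 231 genes in all (1.71%). The count was 3155 without control vehicle replicate 1, 325 without control vehicle replicate 2, 483 without control TNFα replicate 1 and 717 without control TNFα replicate 3. It was 854 and 586 without Atg5 knockout vehicle replicates 2 and 3, and 293 without Atg5 knockout TNFα replicate 2.

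Control minus double knockout differed for 156 genes (1.15%), 104 with the control response higher (0.769%) and 52 with it lower (0.384%), and for 2 genes after length correction (0.0148%), Agpat5 and Hnrnpr, which lie outside the naming rule. Leaving out control libraries gave 1773 (vehicle 1), 30 (vehicle 2), 226 (vehicle 3), 21 (TNFα 1), 39 (TNFα 2) and 33 (TNFα 3). Leaving out double knockout libraries gave 503, 19 and 26 for vehicle replicates 1 to 3, and 13, 31 and 877 for TNFα replicates 1 to 3. Nfkbia responded by 0.19 in control and 0.48 in the double knockout (difference -0.29, adjusted p = 0.340), and Rgs16 by 0.36 and 0.43 (difference -0.07, adjusted p = 0.793).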

How the data were processed

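RNA was sequenced from 6 control libraries, 3 per treatment, within a series of 24. The deposited values are expected counts per gene symbol, which the authors estimated without normalization. STAR, RSEM, DESeq2, GRCm38 and mm10 are named, with no versions or order, in the submitters' processing notes. The sources used here do not give the strand setting or annotation, and reads of overlapping genes, antisense genes and near-identical copies cannot be told apart. The values were whole numbers already, and rounding changed 0 of them. One of 15739 rows has a blank name and a mean share of 0.140% of the counts, and it entered neither library sizes nor tests.

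Groups were taken from the labels. edgeR 4.0.16 (R 4.3.3) was run with TMM scaling, filterByExpr over the 8 groups (2211 genes with low counts removed, 13527 tested) and the quasi-likelihood test on 8 group means over 24 libraries, so that the spread was estimated from all of them. A gene was called at a Benjamini-Hochberg adjusted p under 0.05 over all genes tested. Fold changes are given as estimated by edgeR on the log2 scale, with SE and 95% intervals. Levels are counts scaled to the TMM library size (CPM), and levels per kilobase divide CPM by the longest transcript in GENCODE M21 (GRCm38), whose symbols matched 15519 rows. For the length correction, a lowess curve (span 0.3) of the deviation of each library on log2 transcript length was used as an offset. Length was known for 13350 tested genes (98.7%), and the others had an offset of 0.

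Genes were named by rule: up to 15 changes in each direction that were called in the full fit, without vehicle replicate 2 and after length correction (0 genes met this), the 4 smallest adjusted p values of each gene list, 22 genes set by name, and genes whose limits had to be stated. Genes outside this rule are marked where they appear. The comparison, gene lists and rules were chosen with earlier results of these data known. Alternatives were RLE and upper quartile scaling, other filters, robust spread estimation, glmTreat, DESeq2 1.42.0, fits of only the groups compared, a replicate block, and leaving out each library. Promoter windows came from RefSeq on GRCm38.p6, whose windows covered 10017 of the tested genes. Every sample column was used. Not every gene that the rule names is reported here.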

Additional observations from a re-analysis of the deposited data

Results flagged for a closer look

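The 3 differences of response between genotypes were tested with interaction terms in edgeR, and each was called for at least 1 gene. Control minus Rnf31 knockout differed for 1 gene (Tmod1), and the count ran from 0 without control TNFα replicate 3 to 113 without control vehicle replicate 1. Control minus Atg5 knockout differed for 1536 genes, from 293 without Atg5 knockout TNFα replicate 2 to 3155 without control vehicle replicate 1, and 231 after length correction. Control minus double knockout differed for 156 genes, from 13 without double knockout TNFα replicate 1 to 1773 without control vehicle replicate 1, and 2 after length correction. Vehicle replicate 2, whose levels moved with transcript length, is in the control side of all 3 differences: without it the counts were 6, 325 and 30. Its part in them beyond these values was not tested.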

How the results depend on the processing

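Genes called higher and lower with TNFα in control cells (13 and 0) numbered 28 and 1 with upper quartile scaling, 86 and 8 with no low-count filter, 103 and 14 with a filter at a mean of 1 CPM, 59 and 9 with robust spread estimation, and 382 and 305 in DESeq2. RLE scaling gave 14 and 1, and the single lower gene under both scalings was Fdx1, outside the naming rule. With glmTreat against a log2 fold change of 1, with only the 6 control libraries, with length correction, and with length correction without vehicle replicate 2, 0 were called higher and 0 lower. By more than 2-fold, 1 gene was lower with no filter, with the 1 CPM filter and with robust estimation (Nutf2-ps1 in each). Leaving out each library gave 0 to 1038 genes higher, 0 to 1162 lower, 0 to 13 higher by more than 2-fold and 0 to 22 lower by more than 2-fold.

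The difference to the Rnf31 knockout (1 gene) was called for 2 with upper quartile scaling, 3 with robust estimation, 55 in DESeq2, 14 with length correction, 6 with that correction without vehicle replicate 2, and 0 with glmTreat, and leaving out libraries gave 0 to 113. The difference to the Atg5 knockout (1536) was called for 231 with length correction, 9 with that correction without vehicle replicate 2, 504 in the 12 libraries compared and 0 with glmTreat, and leaving out libraries gave 293 to 3155. The difference to the double knockout (156) was called for 2, 2, 5 and 0 under the same settings and for 784 in DESeq2, and leaving out libraries gave 13 to 1773.

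Of the named genes, the 13 called ones lost the call with length correction, with glmTreat and with only the control libraries. They also lost it without vehicle replicate 3 and without TNFα replicate 3. In DESeq2, 26 others gained it, 76 kept their result, and the rest of the 125 tested were not compared. Without vehicle replicate 1, 48 gained it.

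Replicate numbers were checked as pairs: the deviations of same-numbered control libraries correlated at 0.198, 0.211 and 0.068 over 9810 genes. Pairs with other numbers lay between -0.207 and 0.076. Vehicle replicates 1 and 2 each correlated best with the TNFα library of their number, and vehicle replicate 3 with TNFα replicate 1 (0.076). The main fit used no block, since the numbers are not stated to mark shared cultures. Whether they pair the samples was not settled by these values. A replicate block gave 151 genes higher and 31 lower in control, 2 lower by more than 2-fold (Nutf2-ps1 and Pacsin1, outside the naming rule), and differences of 11 (Rnf31), 2003 (Atg5) and 533 (double). With the block and length correction together, 0 genes were called higher and 0 lower in control, and the differences were 17, 448 and 22. RLE and upper quartile scaling moved the median of all genes by 0 and -0.004 on the log2 scale. Depth limits the chemokine and adhesion lists, where most members have few counts. Of the interferon-stimulated list, 21 of 39 members had an interval within 1.5-fold, against 75.6% of all genes with an interval.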
